A study of Mus musculus with 6 samples.

Results

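The genes described here build, link and contract the actin cytoskeleton, and many of them are known targets of serum response factor (SRF). The list holds 54 genes, and its members are every splicing event of these genes in the deposited table. Events were found for 44 of the 54 genes, and they came to 253 of the 45595 events in the table. By kind, 188 were skipped exons, 23 pairs of mutually exclusive exons and 15 retained introns, and a further 14 and 13 were alternative 3' and 5' splice sites. The genes were chosen by their role and selected on the junction totals and inclusion levels of these same libraries, since earlier results were known, so counts over the list describe it and do not support a direction. Fhl1, Fhl2, Myl9, Myl12b, Mkl2, Diaph2, Pfn1, Pfn2, Cfl1 and Svil had no event and are not analysed here.

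The cells were Neuro-2a (N2a), which derive from a neuroblastoma of the mouse. According to the labels 3 libraries were from hnRNP DL-/- cells and 3 from wild-type cells, with no other treatment named. hnRNP DL binds RNA and belongs to the hnRNP proteins, and the study examined splicing with and without it. The labels do not say how the knockout was made, whether it is 1 clone, or whether the libraries of a group were separate cultures, so p-values cover the spread of these libraries alone, which may be technical. The table arranges the libraries as 2 sets of 3, and no label or header ties a set to a genotype. They are called set 1 and set 2, every difference is set 1 against set 2, and no genotype was inferred.

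Actin exists as monomers and filaments, and the balance between them is known to affect the activity of SRF. Monomeric actin binds the coactivators MRTF-A (Mkl1) and MRTF-B (Mkl2) and holds them away from SRF. When filaments form, the coactivators are released and SRF drives genes that carry a CArG box, among them actins, vinculin and Srf itself.

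A perfect CArG box, the SRF site, was looked for in the RefSeq promoters of build GRCm38.p6, which run from 250 bases before to 50 bases after each start. A single box need not read the same on both strands, but the pattern that defines the box does. It was present in 9 of 46 member genes with a promoter entry (19.6%), and in 6 of the 38 that also had a splicing event (15.8%), against 488 of all 27025 genes (1.81%). The list is named for SRF targets, so this share follows from how it was drawn up. The windows around the boxes of 5 members are shown, those whose junction totals passed the test described next, and capitals mark the box.
Cnn2, chr10:79988519-79988578, plus strand: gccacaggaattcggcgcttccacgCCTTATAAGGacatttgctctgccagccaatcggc
Lima1, chr15:99820162-99820221, minus strand: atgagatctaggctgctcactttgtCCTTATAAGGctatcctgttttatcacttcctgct
Vcl, chr14:20929148-20929205, plus strand: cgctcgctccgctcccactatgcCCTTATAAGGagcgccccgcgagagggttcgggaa
Actg1, chr11:120348551-120348610, minus strand: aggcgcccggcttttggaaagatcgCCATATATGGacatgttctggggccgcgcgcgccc
Srf, chr17:46556190-46556269, minus strand: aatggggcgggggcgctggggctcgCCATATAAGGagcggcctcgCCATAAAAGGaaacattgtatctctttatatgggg
The first base of the box lay at -56 in Cnn2, -47 in Lima1, -227 in Vcl and -90 in Actg1 relative to the start. Srf carried a pair of boxes, at -82 and -62. Cnn2, Lima1 and Vcl held the same 10 letters. Arpc4, the other member with an event and a box, had it at -250, and its total did not pass. Of the 13 genes that passed, 5 had a box and 7 had a promoter entry without one. A match is a run of letters and was not tested for binding here.

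The first comparison asked whether the amount of junction reads of these genes differed between the sets. Each gene was represented by its event with the most reads, and its reads on both forms were scaled to the library's sum over genes (CPM). Totals of this kind follow expression and the splicing of that event together, and in bulk RNA fewer expressing cells and less RNA per cell cannot be told apart. Of the 42 member genes that averaged at least 20 reads, 13 passed the test (limma on log2(CPM + 1), Benjamini-Hochberg adjusted p under 0.05 over all 8285 genes), and all 13 were higher in set 1. Over all genes 1.06% passed, 0.591% higher and 0.471% lower in set 1. The median log2 ratio was 0.27 over the members (quartiles 0.04 and 0.56) and 0.01 over all genes (quartiles -0.12 and 0.14). Of the members 32 had a ratio above 0 and 10 below. All 3 libraries of set 1 lay above set 2 in 20 members and below it in 1, while over all genes 7.4% lay above and 6.67% below. Myo6 and Palld had too few reads to be tested.

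**Figure D1:**
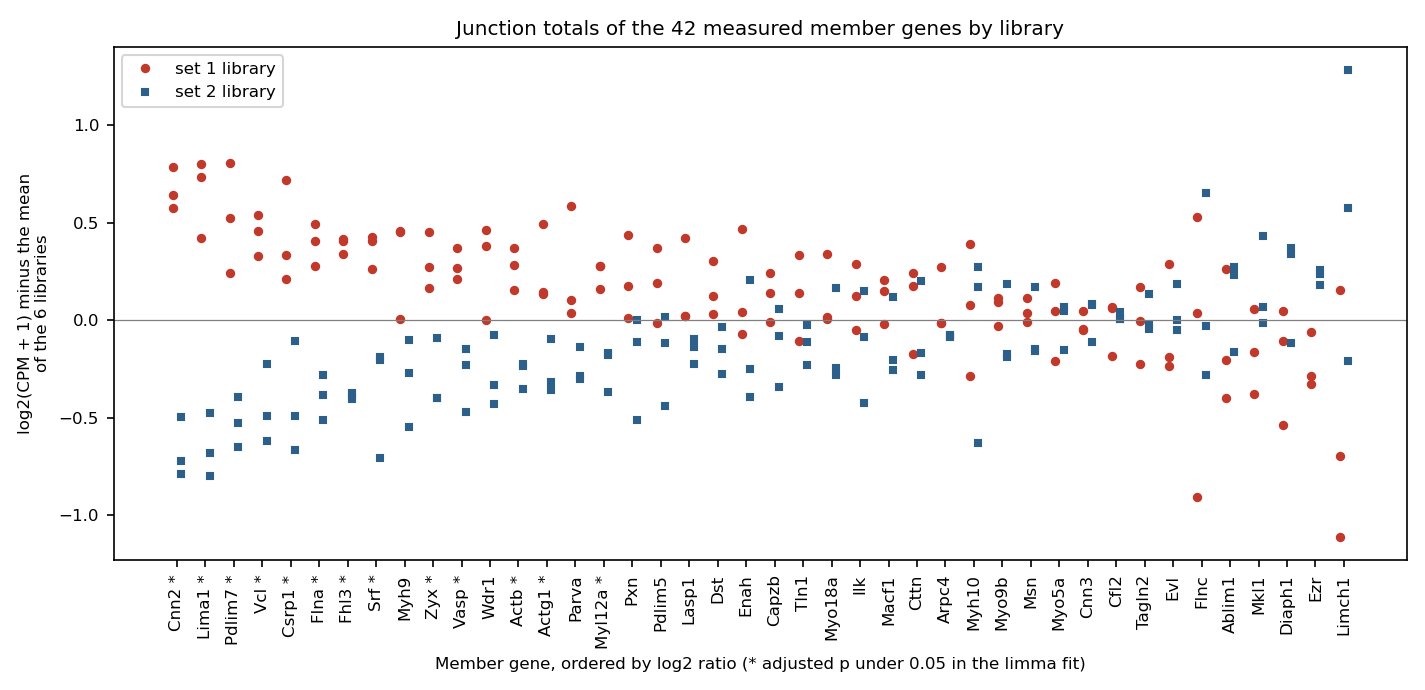
Junction totals of the 42 measured member genes, as log2(CPM + 1) minus the mean of the 6 libraries. Set 1 libraries are circles on the left of each gene and set 2 libraries squares on the right. Stars mark the 13 genes past the limma test, all on the left side of the plot, where the circles lie above the squares.

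The cytoplasmic actins, the building blocks of the filaments, were both higher in set 1. Actb (beta-actin, chromosome 5) had 7957.9, 7497.4 and 6845.6 CPM in set 1, against 5243.6, 5278.5 and 4830.8 CPM in set 2. Its log2 ratio was 0.54 ± 0.08 (SE, n = 3 libraries per set, as for all ratios here; limma adjusted p = 0.00633). The sets did not overlap. The event behind this total was a 150-base retained intron annotated as coding, with an inclusion level of 1.0 in each library. On the skipped-exon event of Actb with the most reads the ratio was 0.54 too (limma adjusted p = 0.0054). Actg1 (gamma-actin, chromosome 11) had 15394.4, 12027.1 and 12111.1 CPM in set 1, against 10222.9, 8547.1 and 8784.5 CPM in set 2. That is a log2 ratio of 0.52 ± 0.11 (limma adjusted p = 0.034), which did not pass under median-of-ratios scaling (adjusted p = 0.0556). Library 1 was the highest of each set for Actg1. Actin genes and their processed copies share long stretches of sequence, and how the authors assigned such reads is not given in the sources used here, so both totals are uncertain.

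Srf, the transcription factor itself, was higher in set 1, and its coactivator Mkl1 did not pass. Srf (chromosome 17) had 96.2, 97.5 and 86.8 CPM in set 1, against 43.9, 63.4 and 62.7 CPM in set 2. The sets did not overlap, and the log2 ratio was 0.73 ± 0.15 (limma adjusted p = 0.0398). The call was lost in 5 of 6 fits that left out 1 library, with ratios between 0.56 and 0.82. Mkl1 had 22.0, 18.8 and 25.8 CPM in set 1, against 24.5, 26.0 and 33.8 CPM in set 2, a log2 ratio of -0.32 ± 0.19 (limma adjusted p = 0.672). Its sets overlapped. The direction was not shared by all 5 Mkl1 events: 1 of them had a ratio of 0.38 with all of set 1 above set 2, and the sum over events gave -0.16.

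Among 12 measured crosslinkers and side-binding proteins, 3 rose and 9 did not pass, with a median log2 ratio of 0.03. Cnn2, a calponin that binds along filaments, had 422.1, 382.1 and 364.2 CPM in set 1, against 147.9, 172.8 and 141.2 CPM in set 2. Its log2 ratio of 1.34 ± 0.11 was the highest of the 42 members (limma adjusted p = 5.93e-05). Its paralogue Cnn3 had 191.2, 179.2 and 178.8 CPM in set 1, against 195.8, 195.5 and 171.5 CPM in set 2, a ratio of -0.03 ± 0.10 (limma adjusted p = 0.976). The 2 calponins were thus far apart, although the difference between them was not tested. Lima1 (EPLIN), which bundles filaments and stabilises them, had 57.3, 71.4 and 75.0 CPM in set 1, against 24.1, 26.2 and 30.4 CPM in set 2. This was a ratio of 1.30 ± 0.16 (limma adjusted p = 0.00137). Flna (filamin A), which joins filaments into networks, had 719.0, 834.5 and 786.0 CPM in set 1, against 416.7, 489.2 and 455.8 CPM in set 2. Its ratio was 0.78 ± 0.10 (limma adjusted p = 0.00137).

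The other filamin, Flnc, had few reads and overlapping sets, with 13.9, 4.51 and 9.59 CPM in set 1 and 15.2, 7.49 and 9.13 CPM in set 2. Its ratio was -0.23 ± 0.36 (limma adjusted p = 0.931). Ezr (ezrin), which ties filaments to the plasma membrane, was the single member with all of set 1 below set 2. It had 77.8, 93.8 and 80.2 CPM in set 1, against 115.5, 111.0 and 117.2 CPM in set 2, and its ratio of -0.45 ± 0.12 did not pass (limma adjusted p = 0.112). The related linker Msn (moesin) had a ratio of 0.09 ± 0.12. The lowest ratio, -1.10 ± 0.41, belonged to Limch1, which had 9 to 24 reads per library in set 1 and 23 to 55 in set 2 and did not pass (limma adjusted p = 0.357). Dst and Macf1, spectraplakins that connect actin with other filament systems, had ratios of 0.30 and 0.23 and did not pass. For Dst this was the highest of 10 events, whose median was -0.14 and of which 4 lay above 0, so its direction depends on the event. The 11 events of Macf1 ran from -0.34 to 0.51. Nor did Tagln2 (transgelin 2), at -0.04 ± 0.11, or Ablim1, at -0.23 ± 0.20.

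Adhesion and LIM domain proteins link filaments to integrins and to the contractile bundles. Of 11 measured, 5 rose, and all 11 ratios lay between 0.24 and 1.05 with a median of 0.48. Pdlim7, a PDZ and LIM domain protein of stress fibres, had 338.8, 278.6 and 228.5 CPM in set 1, against 133.7, 147.2 and 122.7 CPM in set 2. Its log2 ratio was 1.05 ± 0.14 (limma adjusted p = 0.00215). Vcl (vinculin), which reinforces the link between talin and actin, had 141.8, 155.2 and 164.0 CPM in set 1, against 73.1, 96.4 and 80.0 CPM in set 2. The ratio was 0.88 ± 0.13 (limma adjusted p = 0.00468). Csrp1, a LIM protein of actin bundles, had 346.3, 243.5 and 265.4 CPM in set 1, against 132.4, 195.5 and 149.3 CPM in set 2. Its sets did not overlap, and the ratio was 0.84 ± 0.16 (limma adjusted p = 0.0208).

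Fhl3, a protein of four-and-a-half LIM domains, had 100, 104.7 and 105.3 CPM in set 1, against 59.2, 60.6 and 60.2 CPM in set 2. These were the tightest sets among the genes that passed, with a ratio of 0.77 ± 0.12 (limma adjusted p = 0.00585). Zyx (zyxin), which gathers at strained filaments, had 247.6, 218.4 and 202.4 CPM in set 1, against 169.7, 136.9 and 137.0 CPM in set 2. That gave 0.59 ± 0.12 (limma adjusted p = 0.0352). The integrin-side partners did not pass: Parva (parvin) had a ratio of 0.48 ± 0.15, Pxn (paxillin) 0.42 ± 0.23, Tln1 (talin) 0.24 ± 0.14 and Ilk (integrin-linked kinase) 0.24 ± 0.14. Their limma adjusted p-values lay between 0.231 and 0.67. For Ilk 0.24 was the lowest of 8 events, which had a median of 0.37 and reached 0.49. All of set 1 lay above set 2 in 5 of these 8, and in none of the 6 events of Tln1. The LIM proteins Pdlim5 and Lasp1 had ratios of 0.36 ± 0.16 and 0.31 ± 0.15 and did not pass either (limma adjusted p = 0.476 and 0.548).

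Of 9 measured assembly and turnover factors, Vasp alone rose, and the median log2 ratio of the group was 0.16. Vasp, which helps filaments to elongate, had 214.8, 192.7 and 200.2 CPM in set 1, against 150.1, 119.9 and 141.7 CPM in set 2. Its ratio was 0.56 ± 0.12 (limma adjusted p = 0.034). The other Ena/VASP proteins did not pass, with ratios of 0.29 ± 0.17 for Enah and -0.09 ± 0.15 for Evl. Wdr1, a cofactor of cofilin, had the same ratio as Vasp with a wider spread, 0.56 ± 0.14 (limma adjusted p = 0.09). Its sets did not overlap, and it passed in 1 of the 6 fits that left out 1 library. Its total came from a retained intron, the only Wdr1 event that averaged at least 20 reads. Cfl2 (muscle cofilin) had 135.1, 135.5 and 113.6 CPM in set 1 and 130.0, 133.0 and 129.6 CPM in set 2, a ratio of -0.04 ± 0.11. The formin Diaph1 had a ratio of -0.40 ± 0.22, and Arpc4, a subunit of the branching Arp2/3 complex, 0.16 ± 0.10. Capzb, which caps filament ends, had 1070.5, 1276.9 and 1187.9 CPM in set 1 and 849.8, 1122.2 and 1018.5 CPM in set 2, overlapping sets with a ratio of 0.25 ± 0.11 (limma adjusted p = 0.497).

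Of 6 measured myosin genes, 1 rose, and all 6 ratios were above 0, with a median of 0.18. Myl12a, a regulatory light chain of non-muscle myosin II, had 615.5, 566.1 and 614.1 CPM in set 1, against 448.3, 392.3 and 450.4 CPM in set 2. The ratio was 0.48 ± 0.09 (limma adjusted p = 0.0275). Myl12a and Myl12b are near-identical, so this total is uncertain too. Myh9, the heavy chain of myosin IIA, had 213.6, 290.3 and 291.7 CPM in set 1, against 145.2, 176.0 and 198.2 CPM in set 2. These sets did not overlap, but the ratio of 0.61 ± 0.14 did not pass (limma adjusted p = 0.0715), except in the fit without library 1 of set 1 (adjusted p = 0.00135) and that without library 1 of both sets (adjusted p = 0.000214). Myh10, the heavy chain of myosin IIB, had 83.7, 134.1 and 108.0 CPM in set 1 and 65.6, 115.2 and 123.6 CPM in set 2, with overlapping sets and a ratio of 0.12 ± 0.22 (limma adjusted p = 0.943). The unconventional myosins Myo18a, Myo9b and Myo5a had ratios of 0.24, 0.12 and 0.02 and did not pass.

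Some of the 13 calls rested on particular libraries. In fits that left out 1 library in turn, between 6 and 15 members passed, all higher in set 1. There were 15 without library 1 of set 1, 6 without library 2 and 7 without library 3 of set 1, and 11, 8 and 7 without libraries 1, 2 and 3 of set 2. Cnn2, Lima1, Pdlim7, Vcl and Flna passed in all 6 fits. Actb and Fhl3 passed in 5, Csrp1 in 3, Zyx, Vasp, Actg1 and Myl12a in 2, and Srf in 1. No gene among the 13 changed direction in any of them.

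A total from 1 event could move through the splicing of that event, so each event was also taken on its own. The 13 genes that passed had 89 events that averaged at least 20 reads, which share reads within a gene. All 89 had a log2 ratio above 0, and in 81 all of set 1 lay above set 2. The 89 include the events that gave the totals. The genes were picked for passing on those, so the shared direction was largely fixed beforehand. Fhl3 and Srf had no further event at this read minimum, and 11 of the 13 genes had 2 or more. The 26 events of Flna lay between 0.59 and 0.91, and the 22 of Pdlim7 between 0.80 and 1.27. The 5 events of Cnn2 spanned only 1.30 to 1.34. Inclusion levels of these 89 events, the share of transcripts that carry the alternative stretch, changed little. None changed by 0.10 or more, none was called in the authors' deposited table, and in none did the sets stay apart. Over all events 2.63% changed by 0.10 or more, 0.645% were called and 5.56% had sets apart. Of the 89, 72 stood above 0.95 or below 0.05 on average. Of all 39419 events 23808 stood above 0.95 and 3676 below 0.05, so stable levels were common throughout. The largest change among the 89 was -0.079, in a 981-base retained intron of Zyx. The level there was 0.909, 0.682 and 0.674 in set 1, against 0.846, 0.857 and 0.8 in set 2.

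**Figure D2:**
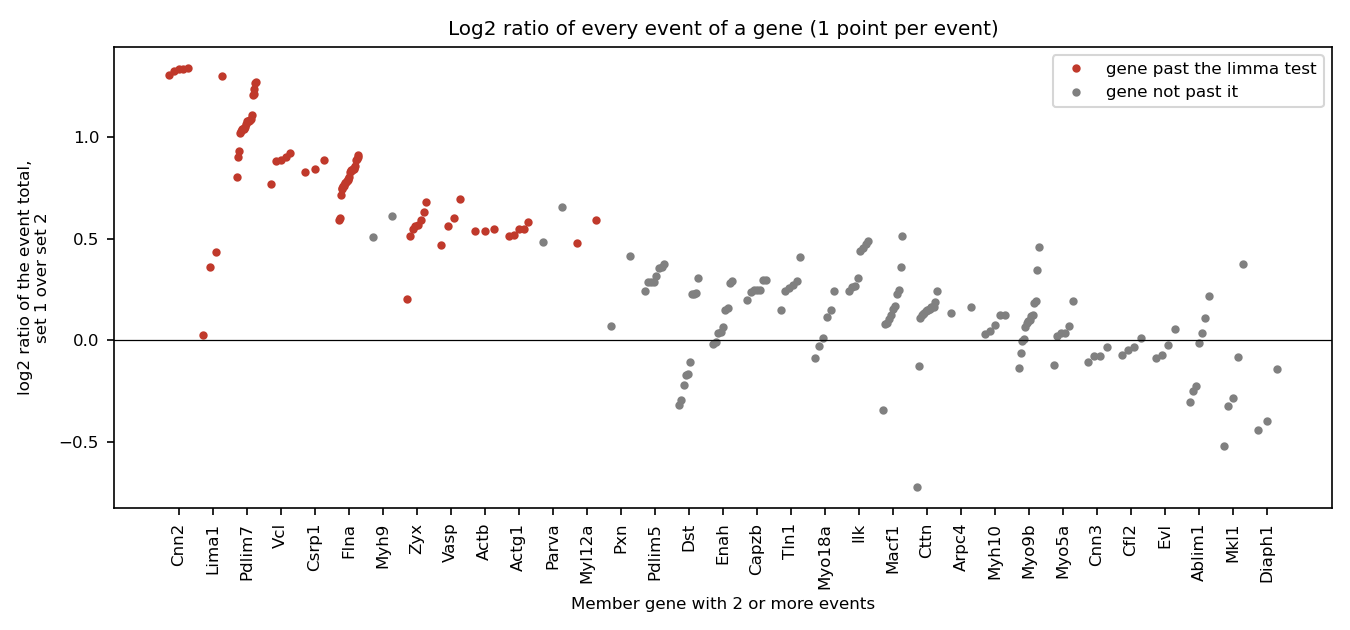
Log2 ratio of junction totals, set 1 over set 2, for every event of member genes with 2 or more events that averaged at least 20 reads. Each point is 1 event, and genes past the limma test are in red. The events of Cnn2, Flna and Pdlim7 all lie above 0.5, while those of Lima1 reach from 0.02 to 1.30.

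Lima1 was the gene among the 13 whose events differed most from each other. The RefSeq start that carries the CArG box lies inside the gene, and events with their alternative exon on either side of it could be set apart. The event on the 46-base exon and the mutually exclusive pair, both below, reached to chr15:99819494, downstream of that start. The 58-base exon downstream of that start, chr15:99796742-99796799, gave the totals above, with a ratio of 1.30. Upstream, the event on the 46-base exon chr15:99826792-99826837 had 7.54, 7.12 and 5.41 CPM in set 1 and 8.59, 5.15 and 6.17 CPM in set 2, a ratio of 0.02. The event on the 149-base exon chr15:99843675-99843823 had 12.9, 15.0 and 8.36 CPM in set 1 and 10.1, 8.43 and 8.39 CPM in set 2, a ratio of 0.36. A mutually exclusive pair in the same stretch had 0.43. Only the downstream event kept its sets apart. The upstream events rested on mean counts of 30.7 and 47.8 reads, against 210.3 downstream, and the difference between their ratios was not tested.

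**Figure D3:**
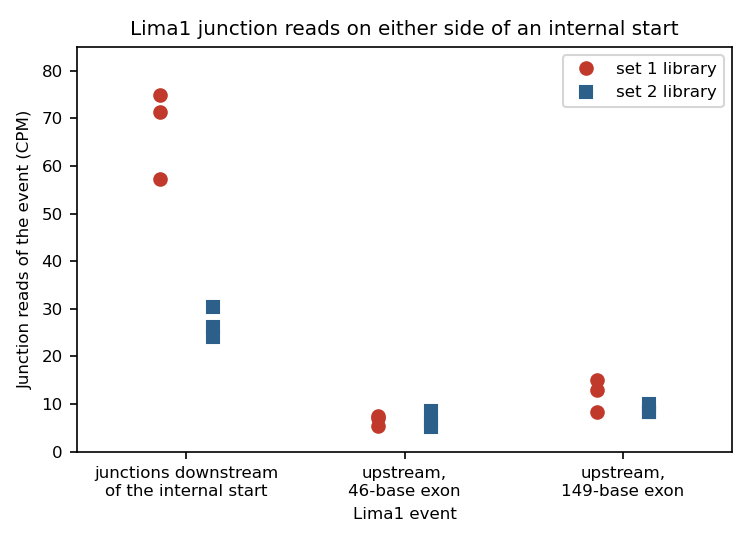
Junction reads (CPM) of 3 Lima1 events in each library, set 1 as circles and set 2 as squares. Downstream of the internal start the set 1 libraries lie at 57.3 to 75.0 CPM and the set 2 libraries at 24.1 to 30.4 CPM, and for both upstream events the sets overlap.

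The second comparison asked which events differed in inclusion level. Of the 253 member events 3 were called in the authors' deposited table (adjusted p under 0.05 with a change of 0.10 or more), in Myo18a, Cttn and Ablim1, while 0.645% of all events were. A moderated quasi-binomial test on the inclusion and skipping reads, which includes the spread between libraries, called none of the 236 member events that averaged at least 20 reads, and none of all 39419. At an unadjusted p under 0.05 it had 10 member events, with 3.45% of all events below that level, and limma on logit levels called 0 and had 5, with 3.32% of all events. The smallest adjusted p of a member was 0.615 in the quasi-binomial test. The sets did not overlap in 13 of the 236 (5.51%), 7 higher and 6 lower in set 1, while 5.56% of all events did not overlap. A change of 0.10 or more was seen in 5 members (2.12%) and in 2.63% of all events.

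**Figure D4:**
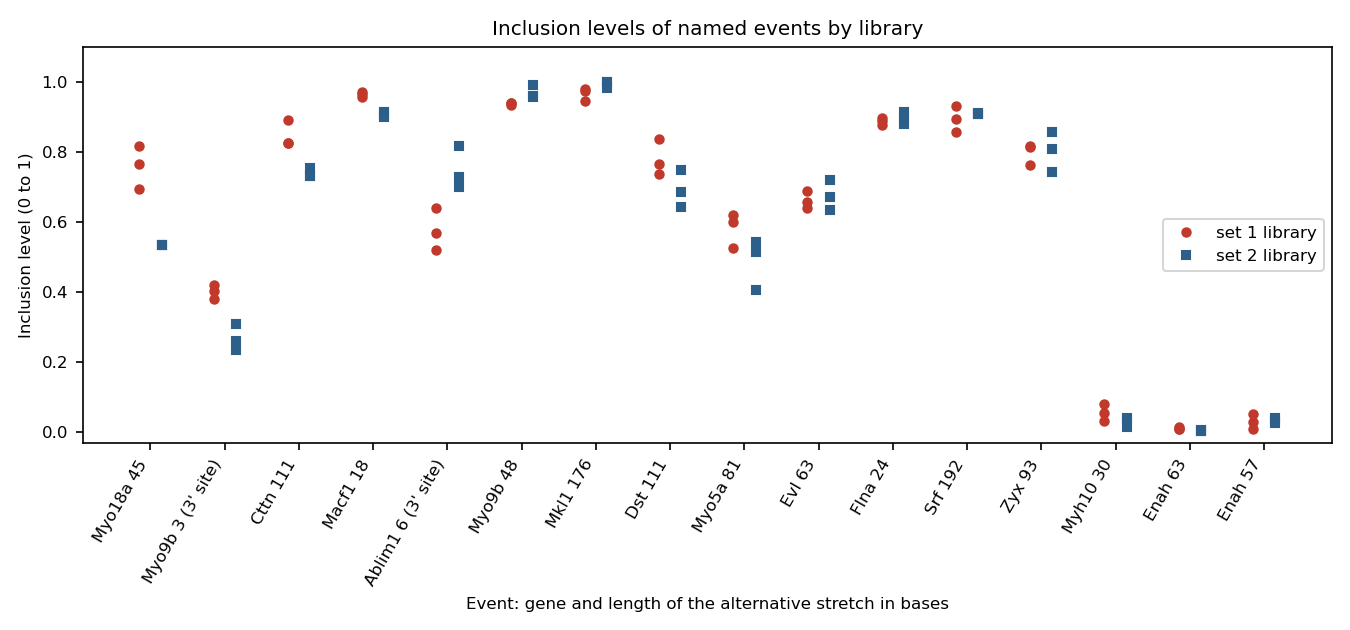
Inclusion level (0 to 1) of 16 named events in each library, set 1 as circles on the left and set 2 as squares on the right. Labels give the gene and the length of the alternative stretch in bases. The sets stand apart at the left, where Myo18a has 0.695 to 0.816 in set 1 and 0.533 to 0.534 in set 2, and they overlap from Dst to Zyx.

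Myo18a is an unconventional myosin with a long coiled-coil tail, and its alternative exon of 45 bases lies at chr11:77854678-77854722 on the plus strand. The exon is printed because its change was the largest of the 3 called. It holds 15 codons' worth of bases, so the frame is kept with or without it.
Myo18a exon: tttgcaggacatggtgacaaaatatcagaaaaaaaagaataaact
It was included at 0.766, 0.695 and 0.816 in set 1, against 0.533, 0.534 and 0.533 in set 2. The sets were far apart relative to their spread, with a difference of 0.226 (adjusted p of 0.00126 in the authors' deposited table). The quasi-binomial p was 0.00119 before and 0.735 after adjustment. Behind these levels stood 102, 71 and 63 inclusion reads and 24, 24 and 11 skipping reads in set 1, and 93, 43 and 37 inclusion reads and 63, 29 and 25 skipping reads in set 2. The junction total of Myo18a had a log2 ratio of 0.24 ± 0.19, not past the threshold (limma adjusted p = 0.814). Another exon of the gene, of 144 bases, ran the other way without passing, at 0.217 in set 1 and 0.288 in set 2.

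Cttn (cortactin) binds filaments through a tandem repeat of 37 amino acids and supports branched networks. The alternative stretch is a single exon of 111 bases that encodes 1 repeat unit, chr7:144450978-144451088 on the minus strand. It is shown with the 3 repeat exons just upstream, in which capitals mark bases identical to the alternative exon when set against it position by position.
Cttn chr7:144454676-144454786: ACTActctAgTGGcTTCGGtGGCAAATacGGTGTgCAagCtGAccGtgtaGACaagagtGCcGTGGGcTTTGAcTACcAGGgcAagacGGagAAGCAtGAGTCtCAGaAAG
Cttn chr7:144452548-144452658: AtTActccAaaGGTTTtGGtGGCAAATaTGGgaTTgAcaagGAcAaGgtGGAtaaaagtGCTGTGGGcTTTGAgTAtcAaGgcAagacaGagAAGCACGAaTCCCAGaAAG
Cttn chr7:144452027-144452137: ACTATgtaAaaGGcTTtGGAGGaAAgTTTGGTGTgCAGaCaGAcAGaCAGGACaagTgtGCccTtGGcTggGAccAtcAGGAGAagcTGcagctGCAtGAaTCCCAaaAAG
Cttn alternative exon: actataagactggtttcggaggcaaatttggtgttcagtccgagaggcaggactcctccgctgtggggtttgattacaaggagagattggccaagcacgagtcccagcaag
These were identical to the alternative exon at 64.0%, 60.4% and 63.1% of the bases, in the order printed. The alternative exon was included at 0.826, 0.892 and 0.826 in set 1, against 0.753, 0.732 and 0.732 in set 2. The sets did not overlap, and the difference was 0.109 (adjusted p of 0.000485 in the authors' deposited table, quasi-binomial p 0.00135 before and 0.735 after adjustment). The Cttn total had a log2 ratio of 0.16 ± 0.14, which did not pass (limma adjusted p = 0.849).

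Ablim1, an actin-binding LIM protein, and Myo9b, an unconventional myosin, have small alternative 3' splice sites whose sets did not overlap. Both stretches have a length that is a multiple of 3, and where they lie in the reading frame was not examined. They are shown in capitals between 20 bases of the exons on either side.
Ablim1, chr19:57047066-57047071, minus strand: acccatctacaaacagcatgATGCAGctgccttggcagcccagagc
Myo9b, chr8:71354514-71354516, plus strand: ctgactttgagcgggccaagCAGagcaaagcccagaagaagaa
The 6 bases of Ablim1 were included at 0.521, 0.570 and 0.639 in set 1, against 0.729, 0.701 and 0.817 in set 2. This was the called event with lower inclusion in set 1, by -0.172 (adjusted p of 0.0276 in the authors' deposited table, quasi-binomial p 0.0018 before and 0.735 after adjustment). The 3 bases of Myo9b were included at 0.381, 0.404 and 0.420 in set 1, against 0.235, 0.309 and 0.260 in set 2. That difference of 0.134 fell just outside the call (adjusted p of 0.0566 in the authors' deposited table, quasi-binomial p 0.0064 before and 0.735 after adjustment). A 48-base exon of Myo9b was included at 0.934, 0.941 and 0.941 in set 1, against 0.957, 0.991 and 0.960 in set 2.

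Of the other events with sets apart, that of Macf1 was the largest. Its 18-base exon (ttcttcctcggcaatcag, chr4:123364057-123364074, minus strand) was included at 0.972, 0.965 and 0.957 in set 1, against 0.914, 0.905 and 0.901 in set 2. It did not pass (adjusted p of 0.119 in the authors' deposited table, quasi-binomial adjusted p 0.735). A 176-base exon of Mkl1, which is not a whole number of codons, had 0.947, 0.975 and 0.981 in set 1, against 1.0, 0.982 and 1.0 in set 2. The remaining ones, among them a 1313-base exon of Myo18a and retained introns of Ilk and Cnn3, moved by less than 0.04.

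The further exons of known forms described next differed by less than 0.10, and none passed a test. Some were added after their values were seen, and the Cttn and Myo18a exons above changed by more than 0.10. Those printed are shown because each marks a form of its protein by a short in-frame insert.
Evl, 63 bases, chr12:108683348-108683410, plus strand: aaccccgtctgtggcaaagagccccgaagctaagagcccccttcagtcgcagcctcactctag
Enah, 63 bases, chr1:181911597-181911659, minus strand: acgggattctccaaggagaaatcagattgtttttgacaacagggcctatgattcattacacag
Myh10, 30 bases, chr11:68745935-68745964, plus strand: caggaatcgcctaagcccgtgaaaccccag
Flna, 24 bases, chrX:74232967-74232990, minus strand: tgtcaatcggaggtcacgggctag
Myo5a, 81 bases, chr9:75192384-75192464, plus strand: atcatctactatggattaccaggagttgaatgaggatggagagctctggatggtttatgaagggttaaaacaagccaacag
The Evl exon was included at 0.641, 0.658 and 0.688 in set 1 and 0.721, 0.672 and 0.634 in set 2. The Enah exon, known from epithelial cells, was almost always skipped, at 0.013, 0.008 and 0.008 in set 1 and 0.005, 0.002 and 0.004 in set 2, sets that did not overlap. In Myh10 the 30-base exon, known from neurons, was included at 0.081, 0.054 and 0.032 in set 1 and 0.038, 0.015 and 0.040 in set 2. These forms were thus rare in both sets for Enah and Myh10, and the majority for Evl. The Flna exon had 0.897, 0.876 and 0.888 in set 1 and 0.913, 0.879 and 0.898 in set 2. The Myo5a exon had 0.525, 0.619 and 0.601 in set 1 and 0.515, 0.542 and 0.405 in set 2. A 111-base exon of Dst had 0.738, 0.838 and 0.766 in set 1 and 0.75, 0.685 and 0.643 in set 2. For each of these 6 exons the quasi-binomial adjusted p was 0.735 or more, which does not show that the levels are equal.

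Srf has a 192-base alternative exon, known from a shorter form of the factor, which was included at 0.932, 0.894 and 0.858 in set 1 and 0.912, 0.908 and 0.910 in set 2. Nested exons of 111, 303 and 843 bases in Enah had levels of 0.819, 0.674 and 0.749 in set 1 and 0.857, 0.733 and 0.809 in set 2, and none passed. Vcl was nearly constant, with its 129-base exon at 1.0 in set 1 and 0.998 in set 2. A 327-base exon of Dst was mixed, with overlapping sets, at 0.676, 0.792 and 0.762 in set 1 and 0.816, 0.691 and 0.746 in set 2. Pdlim7, whose total rose, had a 17-base exon at 0.053, 0.032 and 0.040 in set 1 and 0.039, 0.032 and 0.036 in set 2. With other flanking junctions and fewer reads, a mean of 34.8, the same exon stood at 0.436, 0.644 and 0.475 in set 1 and 0.502, 0.311 and 0.537 in set 2. The 15-base exon of Pdlim5 was likewise rare, at 0.0537 in set 1 and 0.0603 in set 2 on average. The 58-base exon of Lima1 was at 0.998 in set 1 and 1.0 in set 2.

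Most alternative stretches of these genes were used almost always or almost never. Of the 236 events 148 had a mean level above 0.95 and 33 below 0.05, which left 55 mixed ones (23.3%), against 30.3% of all events. Of 22 mixed skipped exons, 21 had a length that is a multiple of 3 (95.5%), so that the frame is kept either way, against 2136 of 4356 in the whole table (49.0%). The exception was a 203-base exon of Zyx. Several of the 22 belong to the same gene, 4 of them to Dst and 3 each to Enah and Myo18a, and no test was made. Those of Enah are nested, and the 36-base exon of Myo18a lies within its 144-base one. The 22 are annotated as coding, while the share over the whole table was taken without regard to coding.

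Related lists of genes outside the members were given the same totals. These lists, too, were drawn up with earlier results known. Of 22 other targets of the MRTF-SRF pathway 11 were measured, 3 rose and none fell, and all 11 ratios were above 0, with a median of 0.39. Tpm1 (tropomyosin 1, which coats filaments) had 197.0, 163.8 and 159.1 CPM in set 1, against 94.0, 98.1 and 95.0 CPM in set 2, a log2 ratio of 0.84 ± 0.12 (limma adjusted p = 0.00314). Myl6, an essential myosin light chain, had a ratio of 0.55 ± 0.10 (limma adjusted p = 0.0177). Itga5, an integrin subunit, had 7.54, 14.7 and 18.2 CPM in set 1, against 1.65, 1.40 and 1.73 CPM in set 2, with a ratio of 2.40 ± 0.33 (limma adjusted p = 0.00314). None passed among 8 Arp2/3 subunits (median 0.06), 10 WASP and WAVE genes (0.05) or 9 further focal adhesion genes (0.09). Of 9 turnover genes 1 fell, the monomer-binding Cap1, with 19.6, 15.4 and 14.0 CPM in set 1, against 42.8, 31.6 and 29.6 CPM in set 2 (ratio -1.03 ± 0.20, limma adjusted p = 0.0253). No immediate-early SRF target could be measured.

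The summed junction reads of all events, with some reads counted repeatedly, were 13573870 to 16707466 in set 1 and 13501749 to 18185394 in set 2. Within set 1, library 1 was separate from libraries 2 and 3 on the first principal component of all totals, at -5.83 against 18.35 and 22.01, with set 2 between -18.01 and -7.68. Members' median deviation from the mean of the 6 libraries was 0.19, 0.18 and 0.13 in set 1 and -0.16, -0.13 and -0.17 in set 2. Among the 13 genes that passed, library 1 was the highest of set 1 for Cnn2, Pdlim7, Csrp1, Zyx, Vasp, Actb, Actg1 and Myl12a. It was the lowest of set 1 for Lima1, Vcl, Flna and Fhl3, and neither for Srf. For Myh9, which did not pass, it was the lowest too. The part of library 1 of set 1 in the totals beyond the fits without it was not tested. Of 14 markers of the N2a line, 6 were measured, and their summed level was 529.5 to 724.6 CPM in set 1 and 874.6 to 1011.6 CPM in set 2. Of the 6 ratios 5 were below 0 and 1 above, with a median of -0.42, and much of the sum was Chgb, at 209.8 to 375.7 CPM in set 1 and 489.9 to 626.6 CPM in set 2. Dbh and Chgb, of catecholamine synthesis and secretory granules, fell, with log2 ratios of -2.37 ± 0.34 (limma adjusted p = 0.00347) and -1.01 ± 0.17 (adjusted p = 0.0132). The part of these differences in the totals of the actin genes was not tested. Of the markers of fibroblasts, smooth muscle, endothelium, microglia and astrocytes none was measured, and of 4 for skeletal muscle only Myh3 was. The table holds only genes with an alternative event, and 1 smooth muscle and 2 endothelial markers that had an event were below the read minimum. Hnrnpdl, the gene knocked out, had 399.5, 428.6 and 432.8 CPM in set 1 and 469.7, 502.4 and 502.0 CPM in set 2, a ratio of -0.22 ± 0.09 (limma adjusted p = 0.392), and does not tell which set is the knockout.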

How the data were processed

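Per the labels' protocols, total RNA was isolated with Trizol and the NEBNext Ultra kit was used for sequencing libraries. The submitters' processing notes name Bowtie2 2.2.3, HISAT2 2.1.0, HTSeq 0.6.0 and build mm10 without roles. The deposited table has the layout of rMATS, per the file headers. For each event and library the authors deposited whole-number junction counts of the inclusion and skipping forms and an inclusion level (a fraction from 0 to 1), with a p-value, an adjusted p-value and a difference per event. Its version, annotation and strand setting: not given in the sources used here. Values stand as lists of 3 per set, with no replicate numbers. Levels recomputed from counts and form lengths were within 0.0005 of those deposited.

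Junction totals took each gene's event with the most reads and a mean count of 20 or more, scaled to the sum over 8285 genes. log2(CPM + 1) was fitted with limma 3.58.1 (R 4.3.3, mean-variance trend). The quasi-binomial test moderates the dispersion towards a prior, with a floor of 1, within each kind of event. It was run with 2 priors: first from events with 5 rarer-form reads in total (11 of all events called, no member), then with 5 per library (0 called). The second was kept after both counts were known. Limma on logit levels bounded at 0.01 and 0.99 was an alternative. The totals fit and the quasi-binomial test, but not the logit one, were tested on simulated data. Ratios on log2(CPM + 1) understate changes of genes with few reads.

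The members and lists were chosen with earlier results of these data known. Named are genes past the test, the largest ratios with sets apart (10 up, 6 down), paralogue pairs, called or non-overlapping events, and balanced isoform exons. Some exons of textbook forms, other ratios within a role, and the Lima1 comparison were added after their values were seen. Exon sequences come from GENCODE vM21 transcripts (GRCm38, the assembly of mm10), with 1-based coordinates, and promoters from RefSeq. The result of 1 further gene list is not reported here.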

Additional observations from a re-analysis of the deposited data

How the results depend on the processing

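The count of 13 member genes and their direction held, at 12 or 13 with all higher in set 1, under median-of-ratios scaling, pseudocounts of 0.5 and 5, no minimum count or one of 100, limma-voom, the sum over all events and the skipped-exon event. It was 15 without library 1 of both sets, chosen after seeing the data, and these included all 13. Leaving out 1 library gave 6 to 15. The members' median of 0.27 was 0.3 with a mean count of 100 or more, and 0.26 to 0.33 without 1 library. Single calls were lost for Actg1 without a minimum count (adjusted p = 0.0576), Srf with the sum over events (0.0635) and Zyx with the skipped-exon event (0.0597, limma). Among the named genes, signs turned only for 3 that had not passed: Myh10 was -0.04 without library 2 of set 1 and -0.16 without library 1 of set 2, Cfl2 was 0.05 without library 3 of set 1 (range -0.08 to 0.05), and Flnc was 0.17 and 0.04 without library 2 of set 1 and library 1 of set 2 (range -0.55 to 0.17). The cause was not tested. Of the authors' 3 calls 1 remained at a change of 0.20 or more. In an alternative added later, 5 events passed at an unadjusted p under 0.05 in the authors' deposited table. This alternative kept the minimum change that defined the calls. Further member events with smaller changes also had an unadjusted p under 0.05 there and are not in this count. The quasi-binomial test called 0 members under every alternative run. Its first prior gave 1 member an adjusted p under 0.05 (0.017), a 45-base exon of Actg1 with levels of 0.001 in set 1 and 0.00233 in set 2. No paired analysis was possible because the columns carry no replicate numbers. Intervals for single libraries are not given, and the reads are not counted as molecules. Events with few rarer-form reads limit what the inclusion tests can show.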
